A study of Homo sapiens with 6 samples.

Results

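The 10 genes described here encode transcription factors and regulators that cells switch on early after a stimulus: FOS, FOSB, FOSL1, FOSL2, JUN, JUNB, JUND, ATF3, EGR1 and IER2. They were chosen by name, with earlier results of these data known, as the FOS and JUN families with the immediate early genes ATF3, EGR1 and IER2. All 10 were found by gene identifier among the 27259 genes of the deposited tables. The libraries were made from U87MG, an established human glioblastoma cell line. U87MG-control cells (n = 3) had been infected for 24 h with a control lentivirus, and U87MG-LMO2 cells (n = 3) for 24 h with a lentivirus that expresses LMO2 from a CMV promoter (per the methods of the study), a LIM-domain adaptor protein of transcription factor complexes. All cells shared the same line and serum-containing medium, and no separate cultures are named, so the p-values measure only the spread between these libraries. The libraries hold whole cultures, so a change in fewer cells and a smaller change in every cell cannot be told apart.

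AP-1 is a dimer of basic leucine zipper (bZIP) proteins. A FOS family protein (FOS, FOSB, FOSL1 or FOSL2) pairs with a JUN family protein (JUN, JUNB or JUND), and JUN proteins also pair with each other or with ATF3. Growth factors, serum and stress raise many of these genes within minutes to hours through MAP kinases, serum response factor (SRF) and, for some, STAT3, and in gliomas AP-1 is known for its part in mesenchymal and invasive gene expression. The question of the comparison was how forced LMO2 expression changes the transcriptome of these cells, and here the answer is given for this gene group.

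Promoters were read for 9 of the 10 genes from RefSeq (GRCh38.p14), as windows of 250 bases before and 50 bases after the annotated start; FOSL1 had no entry. The upstream 250 bases and the first 20 transcript bases, which lie in the first exon, are printed 5′ to 3′ for 4 genes: EGR1 and FOSL2 because they passed the test, JUND because it was the third with an unadjusted p under 0.05, and FOS as the classical immediate early gene. Capitals mark matches to the motifs searched. The EGR1 window is chr5:138465229-138465498 on the plus strand, the FOSL2 window chr2:28392608-28392877 on the plus strand, the JUND window chr19:18281603-18281872 on the minus strand and the FOS window chr14:75278578-75278847 on the plus strand.
EGR1: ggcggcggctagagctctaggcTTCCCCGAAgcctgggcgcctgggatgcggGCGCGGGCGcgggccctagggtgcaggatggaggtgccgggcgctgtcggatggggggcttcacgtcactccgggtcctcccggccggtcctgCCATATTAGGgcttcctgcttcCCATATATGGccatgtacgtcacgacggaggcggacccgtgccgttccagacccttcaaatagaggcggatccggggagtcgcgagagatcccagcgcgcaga
FOSL2: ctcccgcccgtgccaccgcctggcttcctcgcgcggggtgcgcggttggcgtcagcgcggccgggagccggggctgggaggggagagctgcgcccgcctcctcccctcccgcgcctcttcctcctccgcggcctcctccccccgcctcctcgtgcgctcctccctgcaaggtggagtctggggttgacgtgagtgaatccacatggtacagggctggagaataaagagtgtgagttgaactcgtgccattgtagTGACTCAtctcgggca
JUND: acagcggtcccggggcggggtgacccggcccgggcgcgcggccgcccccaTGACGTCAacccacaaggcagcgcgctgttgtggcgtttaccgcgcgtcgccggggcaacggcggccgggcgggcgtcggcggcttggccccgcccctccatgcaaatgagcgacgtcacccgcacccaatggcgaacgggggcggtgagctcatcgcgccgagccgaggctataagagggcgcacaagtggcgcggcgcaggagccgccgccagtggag
FOS: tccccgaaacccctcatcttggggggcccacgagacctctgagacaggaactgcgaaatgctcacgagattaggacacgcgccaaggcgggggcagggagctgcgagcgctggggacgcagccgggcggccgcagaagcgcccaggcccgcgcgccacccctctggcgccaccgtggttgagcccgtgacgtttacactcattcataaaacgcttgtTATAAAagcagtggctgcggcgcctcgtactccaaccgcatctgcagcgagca

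The EGR1 window held 4 matches. They were a pair of CArG boxes, the element bound by SRF, from -105 to -96 and from -83 to -74 (counting the first transcript base as 0), an EGR site (GCGNGGGCG) from -198 to -190 and a STAT-type GAS element (TTCNNNGAA) from -228 to -220. A CArG box was present in 1.29% of all 27305 promoter windows of this length, an EGR site in 9.28% and a GAS element in 7.88%. The FOSL2 window held an AP-1 site (TGANTCA, 7.76% of all windows) from 4 to 10, just inside the transcript. In JUND the match was a CRE (TGACGTCA, 1.98% of windows), the element bound by CREB and ATF proteins, from -200 to -193. FOS, FOSB and JUNB each had a TATA box (TATAAA, in 3264 of the windows), from -33 to -28 in FOS. JUN, ATF3 and IER2 held none of these letters in the window. Sites further upstream, or at other starts of a gene, lay outside the search, and ATF3 had 8 deposited transcripts. Both strands were searched, no matches overlapped, and a match describes the sequence and not binding.

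**Figure D1:**
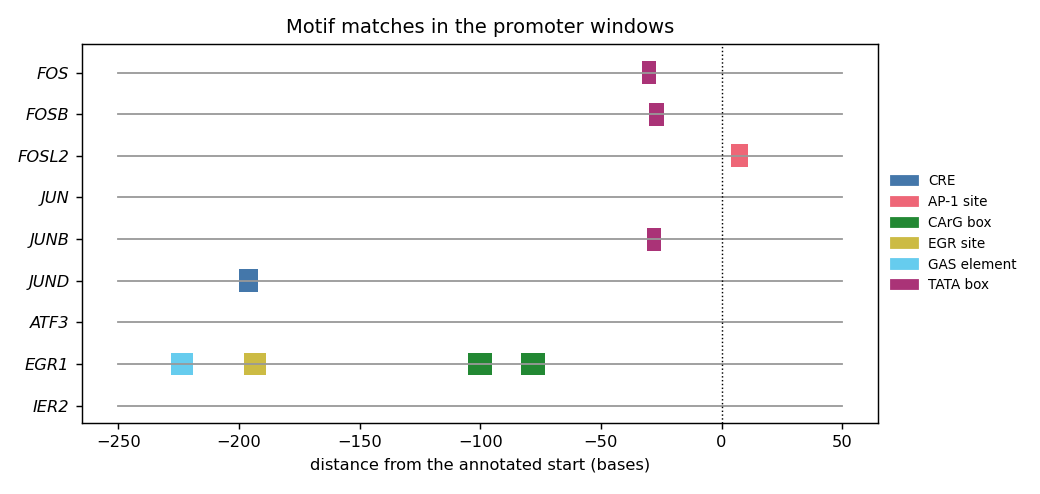
Motif matches in the promoter windows of 9 genes, by distance from the annotated start in bases (dotted line at 0). Each gray line is a window and each coloured block a match; EGR1 holds 4 matches, FOS, FOSB, FOSL2, JUNB and JUND 1 each, and JUN, ATF3 and IER2 none.

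The shallowest and deepest control libraries held 11428432 and 13537284 expected counts in all, and the U87MG-LMO2 libraries were all deeper (14630627 to 17892955). LMO2 itself stood at 0.607, 0.803 and 0.378 CPM (counts scaled to equal library size) in the controls and at 333.0, 307.0 and 877.9 CPM in U87MG-LMO2 replicates 1, 2 and 3. Its log2 fold change was 9.70 ± 0.60 (SE; edgeR adjusted p = 0.000413), and replicate 3 held the most. That library's table also had 3 unreadable lines. Left out were 134 genes with damaged values, judged by the U87MG-LMO2 group mean, none of them among the 10. Across the 16092 genes tested by edgeR, 760 were called higher and 443 lower at an adjusted p under 0.05. Of the glioma line markers, VIM (10910 to 13160 CPM), CD44 (1121 to 1502 CPM) and NES (40.1 to 48.9 CPM) were present in all libraries, OLIG2 lay between 0.409 and 1.06 CPM, SOX2 at or below 0.241 CPM and S100B at or below 0.061 CPM. GFAP, also on that list, was among the damaged genes left out. The 10 markers of other cell types summed to 31.6 to 39.7 CPM in the controls and 32.2 to 40.3 CPM in U87MG-LMO2, most of it SNAP25, with CD3E and CDH5 at or near 0. Of these 10 only SNAP25 and PECAM1 were high enough to be tested, and neither was called by edgeR or DESeq2 or had an unadjusted p under 0.05.

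Of the 10 genes, 2 were called higher in U87MG-LMO2 cells, EGR1 (2.83-fold) and FOSL2 (1.48-fold), and none was called lower. The background was 4.72% of all tested genes called higher and 7.48% called either way. By edgeR 3 of the 10 had an unadjusted p under 0.05, all in the higher direction, and 0 in the lower. The share of all tested genes at that level was not computed, so such counts, here and in the lists below, have no background. Many genes lay near it, since an unadjusted p of 0.0574 (IER2) had an adjusted p of only 0.21 by edgeR. DESeq2 called 3 higher and 0 lower. Without U87MG-control replicate 1, 2 or 3 the count of 2 was 0, without U87MG-LMO2 replicate 1 it was 1 and without U87MG-LMO2 replicate 3 it was 3. The share of all tested genes called either way moved too. It was 0.875 to 1.08% without a control library and 1.38, 5.4 and 14.7% without U87MG-LMO2 replicate 1, 2 and 3. DESeq2 called 10.5%. The list counts below come from the same fits. The fitted change was above 0 for 9 of the 10, against 48.9% of all tested genes, and the median log2 fold change of the 10 was 0.31 against -0.01 for all genes. In 5 of them (FOSB, FOSL2, JUND, EGR1 and IER2) every U87MG-LMO2 library exceeded every control library by CPM, which held for 17.5% of all genes. The median change of all genes rose with GC content, from -0.16 at 40 to 45% GC to 0.21 at 60 to 65% and 0.29 at 65 to 70%. All 10 genes lay above the median GC of tested genes (49.7%), from 50.9% for ATF3 to 69.7% for JUND, so each change is also given with the GC trend removed. The count above 0, the median and the separation of groups given above were not corrected for GC. With the GC trend removed, FOSL1 (-0.09), JUNB (-0.005) and ATF3 (-0.093) lay below 0 and IER2 at 0.003.

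**Figure D2:**
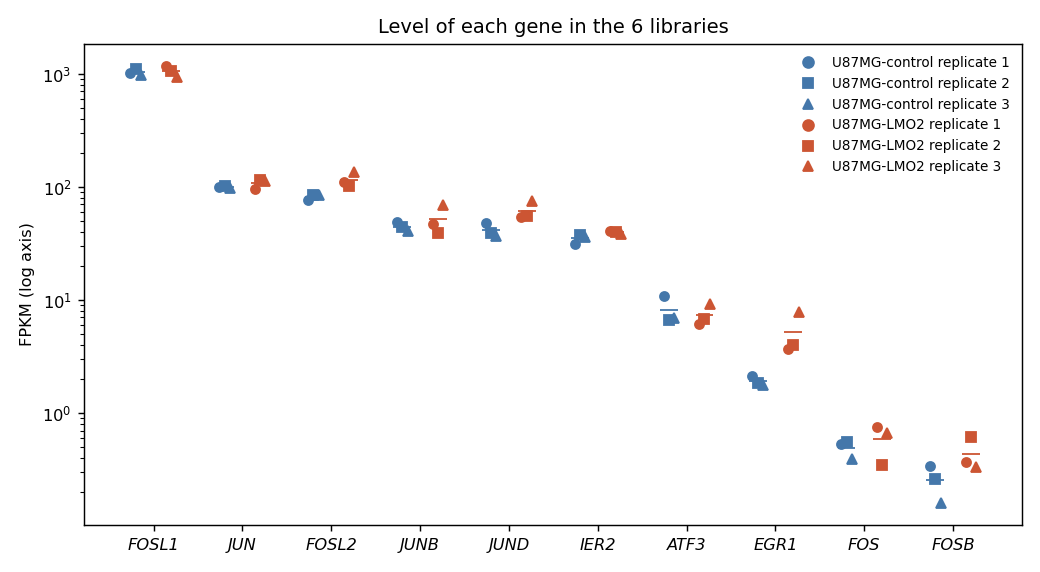
Level of each gene in FPKM (fragments scaled to gene length and library size) on a log axis, with U87MG-control in blue and U87MG-LMO2 in orange, 1 symbol per replicate and a bar at the group mean of 3. FOSL1 sat between 940 and 1175 FPKM, FOS and FOSB below 1, and the groups of EGR1 and FOSL2 did not overlap.

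FOSL1 (FRA1), a FOS family member that lacks the transactivation domain of FOS, was by far the highest of the 10. Its length-corrected level was 1016, 1103 and 981 FPKM in the controls and 1175, 1050 and 940 FPKM in U87MG-LMO2, with overlapping groups. By mean FPKM it ranked 51 of the 25189 genes above 0 in the controls and 43 in U87MG-LMO2. Only the U87MG-LMO2 rank leaves out the 134 damaged genes, so the 2 ranks are not like for like. The log2 fold change was 0.08 ± 0.10 (SE; 95% interval -0.15 to 0.30; edgeR adjusted p = 0.658), and -0.09 with the GC trend removed. A change of 1.23-fold or less in the upward direction therefore lay within the interval.

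FOSL2 (FRA2), its closest relative, was called higher. It measured 348.2, 367.4 and 374.7 CPM in the controls and 517.7, 469.2 and 626.3 CPM in U87MG-LMO2. Every U87MG-LMO2 library lay above every control library, with replicate 3 the highest. The log2 fold change was 0.57 ± 0.12 (SE; 95% interval 0.29 to 0.84; edgeR adjusted p = 0.0308), or 1.48-fold (1.22 to 1.79). It was 0.45 with the GC trend removed (adjusted p = 0.0321) and 0.44 without U87MG-LMO2 replicate 3 (adjusted p = 0.00694). The FOSL2 call was lost by edgeR without U87MG-control replicate 1, 2 or 3 or U87MG-LMO2 replicate 1 (adjusted p = 0.123, 0.117, 0.12 and 0.0923). It was also lost in the limma fits of log2(FPKM + 1) and log2(FPKM + 0.1) (adjusted p = 0.055 and 0.0559), and by edgeR with the replicate number as a block (adjusted p = 0.0565). That is 7 of 14 alternatives, and its change stayed between 0.44 and 0.65. The antisense gene FOSL2-AS1 overlaps FOSL2; it held 32 to 67 counts in the controls and 77 to 94 in U87MG-LMO2, against 4014 or more for FOSL2, and the strandedness of the counting is not given in the sources used here.

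FOS, the prototype member, and FOSB were near the floor. FOS had 13, 16 and 11 counts in the controls and 26, 11 and 26 in U87MG-LMO2, that is 1.13, 1.17 and 0.832 CPM against 1.59, 0.75 and 1.57 CPM. Replicate 2 of U87MG-LMO2 was the lowest of all 6 libraries, so the groups overlapped. Pooled within a group, the level was 1.04 CPM (exact Poisson 95% interval 0.744 to 1.42) against 1.32 CPM (1.02 to 1.69), which covers counting error only. The log2 fold change was 0.33 ± 0.35 (SE; 95% interval -0.47 to 1.13; edgeR adjusted p = 0.592), an interval that runs from 0.722-fold to 2.19-fold. FOS was thus expressed at 0.49 FPKM in the controls and 0.59 FPKM in U87MG-LMO2, and ranked 15782 of 25189 genes in the controls.

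FOSB measured 1.30, 0.949 and 0.605 CPM in the controls and 1.34, 2.25 and 1.33 CPM in U87MG-LMO2. The lowest U87MG-LMO2 library and the highest control library were 1.326 and 1.301 CPM, and in FPKM (0.33 and 0.34) the groups overlapped. Its log2 fold change of 0.78 ± 0.36 (SE; 95% interval -0.04 to 1.61) did not pass the test (edgeR adjusted p = 0.216). Pooled counts were 36 in the controls and 77 in U87MG-LMO2, or 0.937 (0.656 to 1.3) and 1.62 CPM (1.28 to 2.02).

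JUN, the main partner of FOS proteins and itself a target of JNK, was the second highest of the 10 by FPKM in the controls. It stood at 329.5, 338.9 and 327.9 CPM in the controls and 315.4, 386.6 and 407.6 CPM in U87MG-LMO2. Replicate 1 of U87MG-LMO2 lay below all controls and the other two lay above them. JUN changed by 0.16 ± 0.11 on the log2 scale (SE; 95% interval -0.10 to 0.41; edgeR adjusted p = 0.425). Removing the GC trend left 0.04.

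JUNB, a JUN protein that can restrain JUN, measured 88.2, 79.9 and 73.3 CPM in the controls and 85.2, 71.2 and 137.1 CPM in U87MG-LMO2. The higher group mean rested on replicate 3. Its fitted log2 fold change was 0.28 ± 0.22 (SE; 95% interval -0.21 to 0.78; edgeR adjusted p = 0.45), -0.04 without U87MG-LMO2 replicate 3 and -0.01 with the GC trend removed. HOOK2 overlaps JUNB in the annotation and held 294 to 355 counts in the controls and 385 to 592 in U87MG-LMO2.

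JUND, the JUN protein expressed broadly in resting cells, measured 93.2, 76.5 and 71.4 CPM in the controls and 104.2, 107.4 and 158.5 CPM in U87MG-LMO2. The groups did not overlap, and replicate 3 again was the highest. For JUND the log2 fold change was 0.62 ± 0.18 (SE; 95% interval 0.21 to 1.02), with an unadjusted p of 0.00732, and did not pass over all genes (edgeR adjusted p = 0.071). DESeq2 (adjusted p = 0.018), the fit of all genes without a filter (0.0297) and the fit without U87MG-LMO2 replicate 3 (log2 fold change 0.40, adjusted p = 0.0438) did call it. JUND had the highest GC content of the 10, and with the GC trend removed its change was 0.26 (adjusted p = 0.309).

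ATF3, a stress-induced bZIP repressor, was the only one of the 10 with a fitted change below 0. It measured 23.0, 14.2 and 14.6 CPM in the controls and 13.0, 14.2 and 21.4 CPM in U87MG-LMO2, so each group had 1 library well above its other two and the groups overlapped. The log2 fold change was -0.09 ± 0.24 (SE; 95% interval -0.64 to 0.47; edgeR adjusted p = 0.852). Its sign turned without U87MG-control replicate 1 (0.17) or without U87MG-LMO2 replicate 1 (0.06).

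EGR1, a zinc finger factor induced through SRF and ELK proteins at its CArG boxes, had the largest change of the 10. It stood at 6.68, 5.77 and 5.52 CPM in the controls (77, 79 and 73 counts) and at 11.5, 12.5 and 26.8 CPM in U87MG-LMO2 (188, 184 and 445 counts). The lowest U87MG-LMO2 library was well above the highest control, and replicate 3 stood apart from the other two. EGR1 changed by 1.50 ± 0.32 on the log2 scale (SE; 95% interval 0.77 to 2.24; edgeR adjusted p = 0.0312), or 2.83-fold (1.70 to 4.72). Without U87MG-LMO2 replicate 3 it was 1.00 (adjusted p = 0.00299), and with the GC trend removed 1.40 (adjusted p = 0.0337). EGR1 was called in 11 of 14 alternatives and lost the call in the 3 fits that left out U87MG-control replicate 1, 2 or 3, with changes of 1.59, 1.48 and 1.45 and adjusted p from 0.113 to 0.121. In those 3 fits 0.875 to 1.08% of all genes were called.

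IER2, a small immediate early nuclear protein, varied least, relative to its mean, in U87MG-LMO2. It measured 64.5, 77.6 and 75.4 CPM in the controls and 84.2, 83.6 and 85.9 CPM in U87MG-LMO2, without overlap. Its log2 fold change of 0.22 ± 0.10 (SE; 95% interval -0.01 to 0.45) did not pass the test (edgeR adjusted p = 0.21). It was 0.00 with the GC trend removed (0.003).

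**Figure D3:**
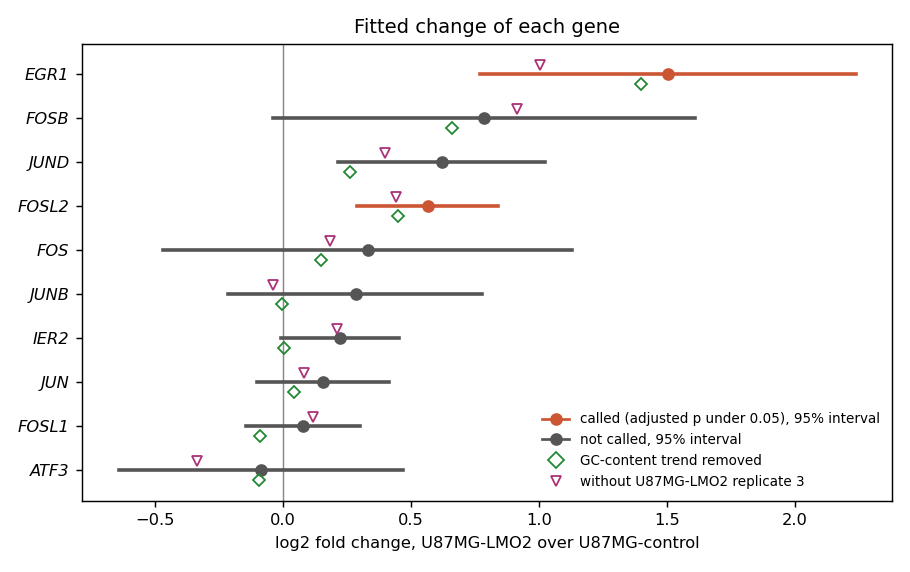
Fitted log2 fold change of U87MG-LMO2 over U87MG-control for each of the 10 genes (filled points, with 95% intervals, orange where called by edgeR), with the GC trend removed (diamonds) and without U87MG-LMO2 replicate 3 (triangles). EGR1 (1.50) and FOSL2 (0.57) are called and lie above 0 in all 3 fits, while JUNB falls to -0.01 and -0.04 in the other two fits.

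In the controls the order of mean FPKM was FOSL1 (1033), JUN (99.6), FOSL2 (81.6), JUNB (44.4), JUND (41.3), IER2 (35.0), ATF3 (8.15), EGR1 (1.91), FOS (0.49) and FOSB (0.253). JUNB overlapped JUND and JUND overlapped IER2, and all other neighbours were separate. In U87MG-LMO2 FOSL2 (115.9 FPKM) stood in second place, overlapping JUN (107.5), and JUND (61.1) stood above JUNB (51.9), again with overlap. EGR1 (5.17) came to overlap ATF3 (7.39), since its highest library (7.85) exceeded the lowest ATF3 libraries. These overlaps set different libraries side by side. Within libraries, JUND lay below JUNB in every control and above it in every U87MG-LMO2 library. FOSL2 lay above JUN only in U87MG-LMO2 replicates 1 and 3. EGR1 lay below ATF3 within every library, with 7.85 against 9.29 FPKM in U87MG-LMO2 replicate 3. These are orders of length-corrected levels and were not tested.

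Within the FOS family, FOSL1 made up nearly all transcripts. Its share of the summed FPKM was 93.0, 92.8 and 92.0% in the controls and 91.3, 91.1 and 87.3% in U87MG-LMO2. FOSL2 held the rest, with 6.95, 7.11 and 7.91% against 8.63, 8.79 and 12.6%. Both shares were separate between groups by a mean of -2.69 and 2.67 percentage points, and the 2 mirror each other because they sum to almost the whole. Without U87MG-LMO2 replicate 3 the differences were -1.40 and 1.38 points, and with CPM in place of FPKM, which leaves gene length uncorrected, -5.55 and 5.52 points. The exact permutation test over the 6 libraries (two-sided) gave p = 0.1 for each, the smallest value that 3 against 3 libraries allow. FOS took 0.0438 ± 0.0063% of the family (SD, n = 3) in the controls and 0.0503 ± 0.0174% in U87MG-LMO2, and FOSB 0.0227 and 0.0375%. The family sum was 1116 ± 64.4 FPKM (SD, n = 3) and 1172 ± 107 FPKM (exact permutation p = 0.6).

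The JUN family was more evenly divided. JUN held 53.9 ± 2.9% of its summed FPKM in the controls (SD, n = 3) and 49.1 ± 5.7% in U87MG-LMO2 (exact permutation p = 0.3), and JUNB 23.9 ± 0.93% and 23.3 ± 4.3% (exact permutation p = 0.9). JUND had 24.5, 21.2 and 20.9% in the controls and 27.4, 26.2 and 29.2% in U87MG-LMO2, a difference of 5.39 percentage points without overlap (exact permutation p = 0.1). The family sum was 195.2, 185.3 and 175.4 FPKM against 196.5, 209.1 and 256.0 FPKM, also without overlap (exact permutation p = 0.1). Its difference of 35.2 FPKM was 17.5 FPKM without U87MG-LMO2 replicate 3. None of the family quantities was corrected for GC content, which was highest in JUND (69.7%). With the GC trend removed, the log2 fold changes of JUN, JUNB and JUND were 0.04, -0.01 and 0.26. None was called in that edgeR fit (adjusted p = 0.852, 0.989 and 0.309). The FOS family sum was 6.03 ± 0.41 times the JUN family sum in the controls and 5.42 ± 1.18 times in U87MG-LMO2 (SD, n = 3; exact permutation p = 0.6). With 10 such quantities compared, the lowest adjusted p was 0.25, so none could pass.

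**Figure D4:**
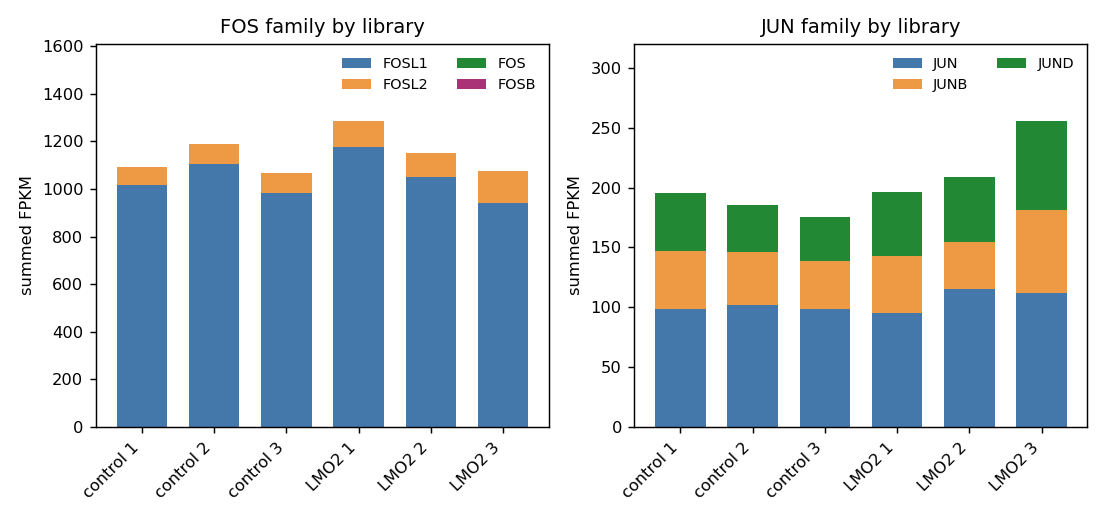
Summed FPKM of the FOS family (left) and the JUN family (right) in each library, stacked by gene from 0. FOSL1 fills most of each left bar, FOS and FOSB are too small to see, and the JUN family bar is highest in U87MG-LMO2 replicate 3 (256.0 FPKM).

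Among the 10 genes, likeness over the 6 libraries was highest between EGR1 and JUND (Pearson r of log2 CPM = 0.976) and between EGR1 and FOSL2 (0.956), with FOSL2 and JUND at 0.886. The points share the group difference and library depth, so r is a description only. JUNB was most like JUND (0.805), IER2 most like FOSL2 (0.821), JUN most like EGR1 (0.764), FOS most like JUNB (0.737), ATF3 most like JUNB (0.661), FOSB most like JUND (0.609) and FOSL1 most like FOS (0.494). Among all tested genes of at least 10 CPM, the closest to EGR1 were SLC41A3 (0.997), ABCA2 (0.997) and TMEM184B (0.996), and the closest to FOS were RERE (0.996), UBALD2 (0.982) and ERF (0.974). For FOS this rests on 11 to 26 counts per library. Within U87MG-LMO2, replicate 3 was the highest library for 7 of the 10 genes by CPM and for 5 by FPKM. The share of all tested genes highest in that library was not computed, so the count cannot be read as particular to these genes. Replicate 3 was also the library with the most LMO2, and whether the LMO2 level plays a part was not tested.

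Of 16 tested bZIP partners and related factors outside the 10, 2 were called higher and 1 lower (18.8%), and their median log2 fold change was 0.04. MAFK, a small MAF protein that pairs with NFE2 factors, measured 23.2, 21.5 and 23.0 CPM in the controls and 34.6, 36.3 and 40.4 CPM in U87MG-LMO2 (log2 fold change 0.72 ± 0.11, edgeR adjusted p = 0.0114). MAFG, its relative, rose by 0.50 ± 0.10 (adjusted p = 0.0229; 0.0648 with the GC trend removed and 0.0675 with the replicate block). JDP2, a JUN dimerization protein that represses AP-1, fell from 34.6, 30.2 and 26.9 CPM to 19.8, 17.2 and 19.9 CPM, a log2 fold change of -0.68 ± 0.13 (adjusted p = 0.0232). None of the 3 had overlapping groups. The count of 3 was 0 without any 1 control library, 1 without U87MG-LMO2 replicate 1 and 6 (3 in each direction) without U87MG-LMO2 replicate 3.

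Of 35 other immediate early genes tested, 9 were called higher and 0 lower by edgeR (25.7%, against 4.72% of all genes called higher). Their median log2 fold change was 0.39. At an unadjusted p under 0.05 by edgeR, 16 were higher and 2 lower. DESeq2 called 1 lower, ZFP36L1, named after its values were seen. This list, like the others, was written with earlier results of these data known, so its share beside that of all genes is a description only. CCN1, a matricellular protein, stood at 74.8, 74.3 and 69.8 CPM in the controls and 177.2, 272.1 and 179.3 CPM in U87MG-LMO2 (log2 fold change 1.52 ± 0.17, edgeR adjusted p = 0.0039). RHOB, an early-induced small GTPase, went from 8.33, 7.67 and 7.42 CPM to 17.1, 29.8 and 20.5 CPM (1.52 ± 0.21, adjusted p = 0.00813). PLK2, a polo-like kinase, measured 39.0, 41.0 and 43.5 CPM against 88.2, 101.2 and 73.7 CPM (1.09 ± 0.13, adjusted p = 0.00453). In these 3 genes replicate 2, not replicate 3, was the highest U87MG-LMO2 library. The kinase SGK1 (log2 fold change 0.86, adjusted p = 0.0227), the mRNA decay factor ZFP36L2 (0.83, 0.0248) and the zinc finger factor KLF10 (0.66, 0.0261) rose as well, and the other 3 called were IER3, CSRNP1 and GADD45A. Without U87MG-control replicate 1, 2 or 3 the count of 9 was 3, 3 and 2, and without U87MG-LMO2 replicate 1 it was 3; without U87MG-LMO2 replicate 2 it was 6, and without replicate 3 there were 11 higher and 2 lower. With the GC trend removed 6 were called higher and 1, ZFP36L1, lower; IER3 (adjusted p = 0.0764), CSRNP1 (0.118) and GADD45A (0.0924) were not called in that edgeR fit.

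Feedback genes of the ERK pathway moved both ways: of 18 tested, 3 were called higher and 1 lower (22.2%), with a median log2 fold change of -0.27. At an unadjusted p under 0.05 by edgeR, 4 were higher and 7 lower, and the fitted change was above 0 for 7 of the 18. DUSP1, a nuclear MAP kinase phosphatase and itself an immediate early gene, measured 15.8, 20.9 and 17.2 CPM in the controls and 47.4, 67.1 and 53.3 CPM in U87MG-LMO2. Its log2 fold change of 1.64 ± 0.17 (SE; edgeR adjusted p = 0.00293) came without overlap between the groups. DUSP14 (0.43, adjusted p = 0.0482) and IER3 (1.01, adjusted p = 0.0392), which is also on the immediate early list, were the other 2. IER3 was not called with the GC trend removed (adjusted p = 0.0764) or with the replicate block (0.0697), nor DUSP14 with the block (0.117), all by edgeR. DUSP5, a nuclear phosphatase for ERK, fell from 49.1, 49.2 and 45.2 CPM to 20.2, 17.7 and 34.2 CPM (-0.99 ± 0.22, adjusted p = 0.0361), and here replicate 3 was nearest to the controls. The count of 4 was 1 or 2 without any 1 control library or U87MG-LMO2 replicate 1 or 2, and 8 (4 in each direction) without U87MG-LMO2 replicate 3.

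Kinases and SRF factors that act upstream of AP-1 were called in 0 of 25 by edgeR, with a median log2 fold change of -0.03. At an unadjusted p under 0.05 there were 5 higher and 3 lower, and DESeq2 called 1, RPS6KA3, lower, named after its values were seen. These are transcript levels, and kinase activity was not measured.

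Of 24 tested genes on a list of AP-1 targets written from general knowledge, 3 were called higher and 2 lower (20.8%). Their median log2 fold change was 0.17, and control of each gene by AP-1 was not tested. The higher ones were the matrix metalloproteases MMP14 and MMP2 and the matrix protein tenascin (TNC). MMP1 (log2 fold change 0.71, adjusted p = 0.443) and MMP3 (0.67, adjusted p = 0.2), named outside the naming rule below, did not pass the edgeR test. Both had overlapping groups, and without U87MG-LMO2 replicate 3 their changes were -0.36 and 0.32. MMP1 stood at 3.17, 2.59 and 12.4 CPM in U87MG-LMO2 replicates 1, 2 and 3. MMP14 measured 563.9, 487.9 and 486.7 CPM in the controls and 785.3, 807.8 and 952.4 CPM in U87MG-LMO2 (log2 fold change 0.73 ± 0.11, edgeR adjusted p = 0.0116). TNC rose by 0.67 ± 0.12 (adjusted p = 0.0197) and MMP2 by 0.62 ± 0.13 (adjusted p = 0.0285). The chromatin proteins HMGA1 and HMGA2 were the lower ones. HMGA1 went from 1509, 1381 and 1336 CPM to 810.0, 871.6 and 764.2 CPM (-0.79 ± 0.10, adjusted p = 0.00557), and HMGA2 changed by -0.83 ± 0.14 (adjusted p = 0.0137). The count of 5 was 1 to 3 without any 1 control library or U87MG-LMO2 replicate 1, and 11 (7 higher and 4 lower) without U87MG-LMO2 replicate 3.

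**Figure D5:**
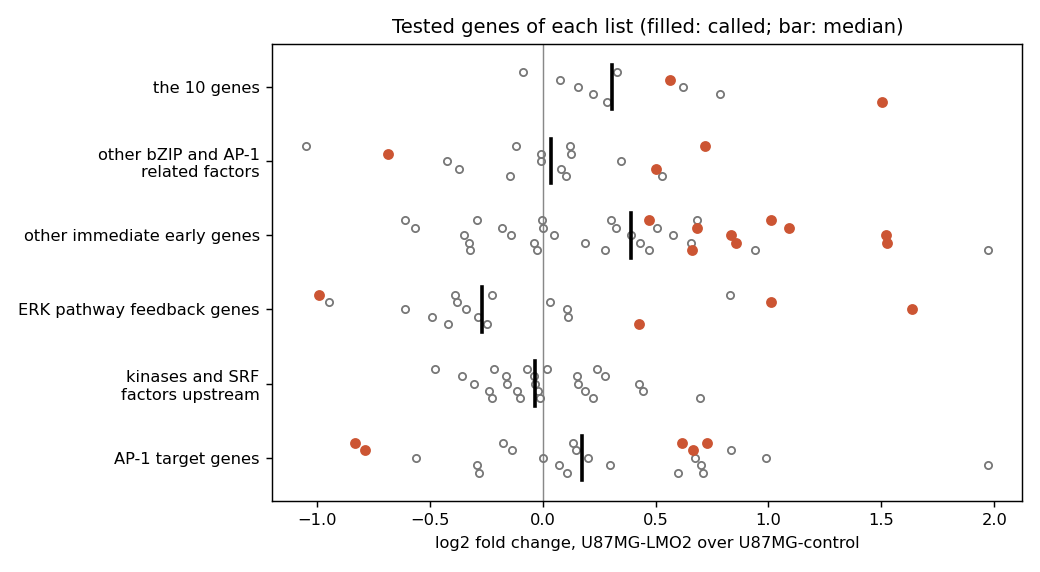
Fitted log2 fold change of U87MG-LMO2 over U87MG-control for each tested gene of the 10 and of the 5 lists; filled points were called by edgeR and the bar is the median. The medians run from -0.27 for the ERK feedback genes to 0.39 for the other immediate early genes.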

How the data were processed

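Total RNA from U87MG cells was sequenced at BGI in 6 libraries, 3 per group as the labels give them. Per the submitters' processing notes, Bowtie2 and BWA were used with GRCh38.p12. The counting program is not given in the sources used here. The authors deposited, per library, expected counts per gene (estimated, not always whole) and FPKM, and a table of group means in FPKM with their own fold changes and probabilities, which were not used beyond locating damaged values. A gene counted as damaged where its U87MG-LMO2 mean differed from the authors' mean by over 0.002 FPKM.

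Expected counts were rounded and fitted with edgeR 4.0.16 (R 4.3.3; filterByExpr, TMM, glmQLFit and glmQLFTest, 16092 genes), with Benjamini-Hochberg adjustment over all genes and a threshold of 0.05. CPM used TMM library sizes. Alternatives were DESeq2 1.42.0, upper-quartile scaling, no filter, at least 10 counts in every library, limma 3.58.1 on log2(FPKM + 1) and log2(FPKM + 0.1), a replicate term, GC removed by lowess (span 0.3; GC known for 89.9% of genes), and each library left out. Family shares used FPKM and exact permutation over 20 assignments. The script was tested on simulated data. Counting precision follows the totals given. The Poisson intervals of FOS and FOSB cover counting error only, while the edgeR intervals also include the spread between libraries.

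The 10 genes and the lists were chosen with earlier results of these data known. Named genes were the 10, LMO2, from each list its called genes (at most 6 per direction by lowest adjusted p), and the closest genes by r. Other list genes are named only to complete a count, except MMP1 and MMP3.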

Additional observations from a re-analysis of the deposited data

How the results depend on the processing

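Of the 10 genes 2 were called. The count was 1 (EGR1, with FOSL2 lost) in each limma fit, log2(FPKM + 1) and log2(FPKM + 0.1), and 1 with the replicate block, and it ran from 0 to 3 when single libraries were left out. Replicate numbers did not pair the libraries (correlations of same-numbered deviations -0.117, -0.003 and -0.041), and the replicate block took the calls over all genes from 760 higher and 443 lower to 387 and 189; DESeq2 gave 1004 and 681. With single libraries left out, these ran from 102 to 1307 higher and from 42 to 1102 lower, the most without U87MG-LMO2 replicate 3. In those fits the share of all tested genes called ran from 0.875 to 14.7%. The bZIP list (3 called) ran from 0 to 6 on leaving out a library, the other immediate early genes (9) from 2 to 13, the ERK feedback genes (4) from 1 to 8, the upstream kinases and SRF factors (0) from 0 to 1 and the AP-1 targets (5) from 1 to 11. The ERK feedback count was 2 with limma on log2(FPKM + 0.1) and 2 with the replicate block, the upstream count 1 with DESeq2 and 1 without a filter, and the AP-1 target count 9 without a filter. Directions turned for FOSL1 with GC removed (-0.09), for JUNB with GC removed (-0.005) and on leaving out libraries (-0.039 to 0.47), and for ATF3 on leaving out libraries (-0.34 to 0.17). On leaving out libraries the FOS family sum difference ran from -1.56 to 104 FPKM, the JUNB share difference from -2.54 to 1.65 points (0.0200 by CPM) and the ratio difference from -1.17 to 0.00134. The cause was not tested. FOS and FOSB are limited by depth, at 8 to 33 counts per library.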
